A study of Homo sapiens with 6 samples.

Results

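Human chromosome 10 carries a short arm, 10p, and a long arm, 10q, joined at the centromere. A list of 56 genes from both arms, mixed in function, was followed in HSC-3, a cell line from a tongue squamous cell carcinoma, in cells labelled as overexpressing trypsin-2 (TAT-2 in the sample titles) and in cells labelled as carrying a control vector. The genes were chosen by their log2 differences between these labels, with earlier results of the same comparison known, so those differences are given as a description and no test of them is read as support. Of the 56, 51 were tested among 12151 genes in all, each through its brightest probe set by the mean of 6 arrays. MAP3K8, a kinase upstream of MAPK, and PDCD4, an inhibitor of translation, lay below the signal filter with every probe set that names them alone, at 0.188 to 8.50 in MAS5 signal. BMI1, of the Polycomb complex PRC1, has only probe sets assigned to several genes, and UBE2D1 and CCDC6 were not analysed here.

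The series set cells labelled as overexpressing trypsin-2 (3 arrays) beside cells labelled control vector with no trypsin-2 (3 arrays), all from the same line and harvested after 48 h of culture, to ask how this serine protease alters gene expression. The labels do not say how the overexpressing line was made, whether each line was a clone or a pool, or whether each replicate was cultured on its own. The p-values therefore cover the spread among these arrays alone, which may be technical. Values are signals of Affymetrix probe sets made with the MAS5 algorithm, and differences are of log2(signal + 16), TAT-2 minus vector, with a standard error (SE) from the fit over all genes, without the replicate number unless said. In a culture measured in bulk, fewer cells that express a gene and less RNA per cell cannot be told apart.

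Genes on an arm share little beyond their address, but in tumour lines whole arms are often gained or lost, and RNA levels along an arm can then differ together. The copy number of chromosome 10 was not measured here. The list holds nuclear, mitochondrial, cytoskeletal and secretory genes that most cells use.

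Array medians lay between 14.8 and 17.6 in signal. Both replicate 1 arrays stood apart, on the principal component with 45.6% of the variance, and the component with 21.7% parted the labels. The sample descriptions number replicates 2 and 3 of each label and leave replicate 1 without a number. PRSS2, the trypsin-2 gene, gave 20.4, 13.8 and 14.6 on replicates 1, 2 and 3 labelled TAT-2, against 19.6, 80.8 and 83.2 on those labelled vector, which goes against the labels (log2 -1.12, limma adjusted p = 0.363, and 0.0380 with the replicate number as a block). Its probe set, whose name ends in _x_at, can read related sequences. Arrays are therefore called by their label throughout, and every direction rests on it. All 7 squamous epithelial markers measured alone by a probe set passed the filter, KRT5, KRT14 and SFN among them, with summed signals of 21596 to 23496 on arrays labelled TAT-2 and 19475 to 26181 on those labelled vector. Within the list the markers differed: CDH1 gave 652, 977 and 932 on TAT-2 arrays and 1028, 1214 and 1193 on vector arrays, with no overlap, and EPCAM was lower on TAT-2 arrays in each replicate number. KRT5 and KRT14 were higher on TAT-2 arrays in replicates 2 and 3 and lower in replicate 1. Of the fibroblast markers 2 of 6 passed (COL1A1 and DCN), of leukocytes 1 of 3 (CD14) and of endothelium 1 of 3 (PECAM1), while COL1A2, COL3A1, LUM and PTPRC did not. Summed signals were 130.5 to 137 for TAT-2 and 112 to 136 for vector in fibroblast markers, and 31.2 to 96.0 for TAT-2 and 24.4 to 59.4 for vector in leukocyte markers. Their part in the results was not tested.

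The 2 arms went opposite ways. Of the 26 members on 10p, 25 were lower on the arrays labelled TAT-2 than on those labelled vector, with a median log2 difference of -0.15 (quartiles -0.23 and -0.08). Of the 25 members on 10q, 22 were higher, with a median of 0.23 (quartiles 0.14 and 0.30), while the median over all 12151 genes was -0.00 (quartiles -0.13 and 0.13). The differences were small: the lowest, of the FERM-domain scaffold FRMD4A on 10p, was -0.35 ± 0.16 and the highest, of the HSP70 co-chaperone BAG3 on 10q, 0.41 ± 0.13. Over all 51 members the arms cancelled to a median of -0.05. Set by replicate number, the 10p members had medians of -0.19, -0.19 and -0.08 for numbers 1, 2 and 3, and the 10q members 0.21, 0.17 and 0.27.

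**Figure D1:**
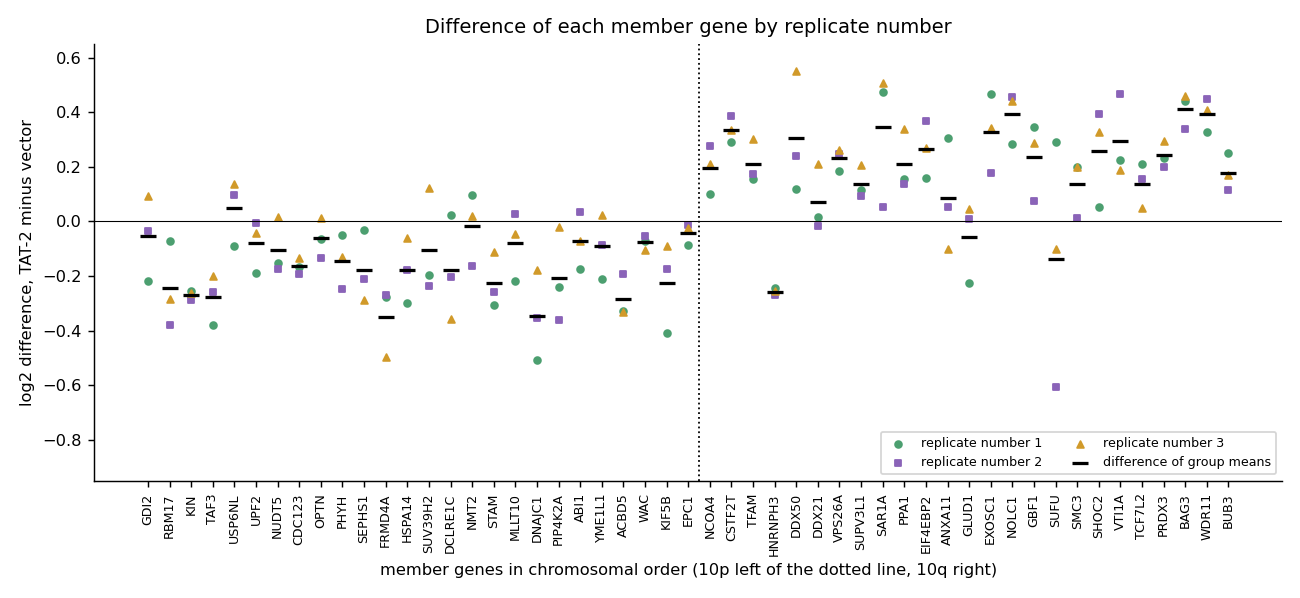
Log2 difference, TAT-2 minus vector, of the 51 tested members in chromosomal order, with a point for each replicate number and a bar for the difference of group means. The bars lie below 0 for 25 of 26 members of 10p and above 0 for 22 of 25 members of 10q. HNRNPH3, SUFU and GLUD1 are the exceptions on 10q and USP6NL is the exception on 10p.

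Within each replicate number, 16 of 26 members on 10p were lower in all 3 numbers and 20 of 25 on 10q were higher in all 3. Of all 12151 genes tested, 2566 were lower in all 3 numbers and 2597 were higher. The arrays labelled TAT-2 lay wholly above those labelled vector for 11 of the 25 members of 10q, where 7.87% of all genes tested did, and wholly below them for 3 of the 26 of 10p, where 7.83% did. Limma without the replicate number called 0 members at an adjusted p of 0.05, of 40 genes called in all (0.329% of those tested), and 11 members lay at an unadjusted p under 0.05, where 9.38% of all genes did. That count of 11 was 16, 3 and 4 without TAT-2 replicates 1, 2 and 3, and 9, 6 and 4 without those of vector. All genes under that p, 1140 with every array, then numbered 1495, 834 and 905, and 1116, 818 and 779. Centring the array medians gave 4 members among 958 genes, and a variance with no intensity trend gave 5 among 1052. With the replicate number as a block limma called 1021 genes (8.4% of those tested), and 12 of the 51 members were among them. ACBD5, DNAJC1 and FRMD4A of 10p were called lower, BAG3, DDX50, EXOSC1, NOLC1, PRDX3, SAR1A, VPS26A and WDR11 of 10q higher, and HNRNPH3 of 10q lower, where 4.34% of all genes were called higher and 4.07% lower. Since this comparison chose the members, these counts describe them and nothing more is read from them. Within replicates 2 and 3 alone, and without the replicate 1 array of either label, the blocked fit called 6 members, 4 of them among the 12, with RBM17 and SHOC2 added. Without the replicate 2 array of either label it called 4, all among the 12. It called 8 without the TAT-2 array of replicate 3 and 7 without the vector array, 6 of the 12 each time, with KIF5B added in both and STAM in the first. Without the intensity trend of the variance the blocked fit called 0 members, with 17 at an unadjusted p under 0.05, where 2042 of 12151 genes were.

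The other genes of chromosome 10 differed the same way by arm. They were read on the same arrays, and the chromosome was chosen with its shift known, so they are no independent support. Of 82 other tested genes on 10p, 55 were lower (median -0.11), and of 355 on 10q, 291 were higher (median 0.19). Taken as array medians of each gene's distance from its mean of 6 arrays, the 10q level minus the 10p level of these other genes was 0.21, 0.14 and 0.11 on replicates 1, 2 and 3 labelled TAT-2, against -0.14, -0.19 and -0.16 on those labelled vector. The means were 0.152 ± 0.0516 for TAT-2 and -0.162 ± 0.0225 for vector (SD, n = 3 each), and the 3 arrays of each label did not overlap; no test is given, since the chromosome was chosen for this shift. Among the members the same measure was 0.20, 0.20 and 0.18 on the arrays labelled TAT-2, against -0.21, -0.18 and -0.16 on those labelled vector.

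**Figure D2:**
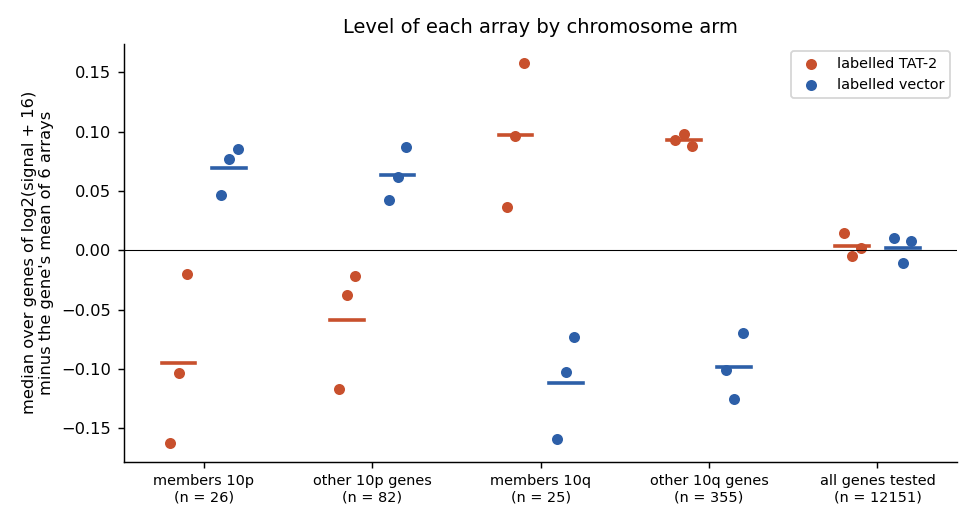
Median, over the genes of a set, of log2(signal + 16) minus the gene's mean of 6 arrays, with a point for each array in the order of replicates 1 to 3 and a bar for the mean of a label. On 10p the arrays labelled TAT-2 lie below those labelled vector, on 10q above them, among members and other genes alike, while over all genes tested the 6 arrays lie between -0.01 and 0.01.

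The median changed sign between the arms. The 488 tested genes were put in the order of the RefSeq table of GRCh38.p14 (the files name no build, so only the order was used) and cut into 5 stretches of 21 or 22 genes on 10p and 18 on 10q. All 5 stretches of 10p had medians below 0, from -0.14 to -0.04, and all 18 of 10q medians above 0, from 0.07 to 0.29. The stretches include the members, which this comparison chose, so these signs are a description. From NUDT5 to NEBL on 10p, 11 of the 22 genes were members. The 10p stretch that ends at ZNF37A, the last tested gene before the boundary of the arms, had a median of -0.14, and the 10q stretch that begins just after it had 0.22. The 10q stretch of highest median, from BLOC1S2 to GBF1, had all of its 21 genes above 0 and held the members NOLC1 and GBF1. The lowest of 10q, from DLG5 to MMRN2, had a median of 0.07, with 61.9% of genes above 0, and held ANXA11, whose 0.09 ± 0.16 was among the smaller values of 10q. The end of 10p before GDI2, with no member, had the median nearest to 0 of that arm, at -0.04.

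**Figure D3:**
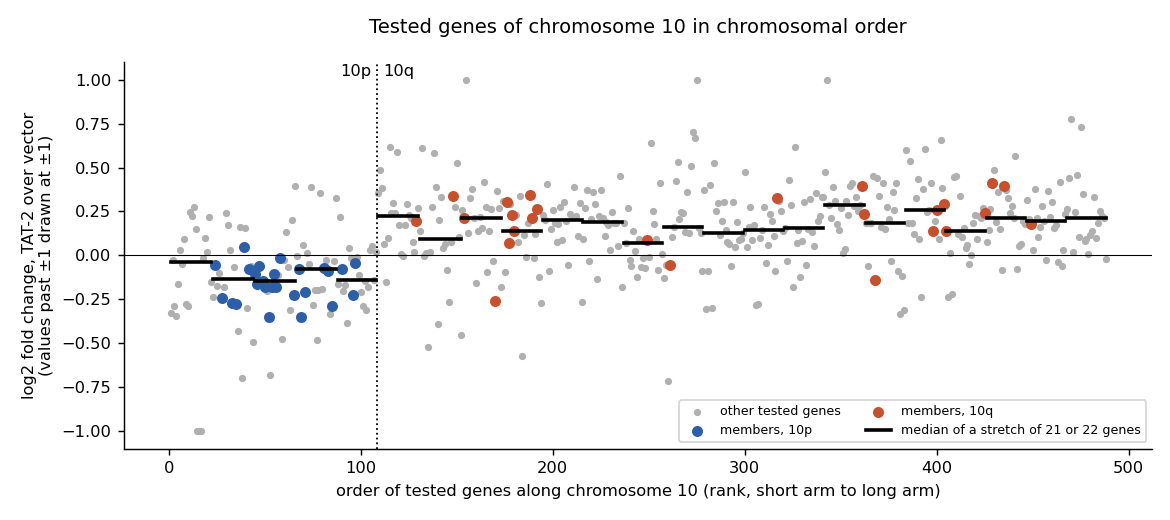
Log2 fold change, TAT-2 over vector, of 488 tested genes against their order along chromosome 10. Members are coloured by arm and other genes are grey. Black bars are medians of stretches of 21 or 22 genes, members included. Every black bar left of the dotted line, the boundary of the arms, lies below 0 and every bar right of it above 0, while single genes of both arms scatter to either side.

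Against the other chromosomes, each taken whole, 10q had the highest median and 10p one of the lowest. The medians of the 22 other chromosomes (1 to 9, 11 to 22 and X) ran from -0.21 to 0.08. Chromosome 20 was the lowest (351 genes, 16.8% above 0), and chromosomes 5 and 22 were the next above 0 after 10q, at 0.08 and 0.06. The 380 tested genes of 10q had a median of 0.19 with 82.4% above 0. The 108 of 10p had a median of -0.11 with 25.9% above 0, below every chromosome but 20. The other chromosomes were not split, so their single arms were not compared with 10p and 10q. Both arm medians include the members, and the chromosome was chosen with its shift known, so their places are a description. Without the members the medians were 0.19 on 10q and -0.11 on 10p. Genes on one chromosome are not replicates, so no test was made of these medians.

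**Figure D4:**
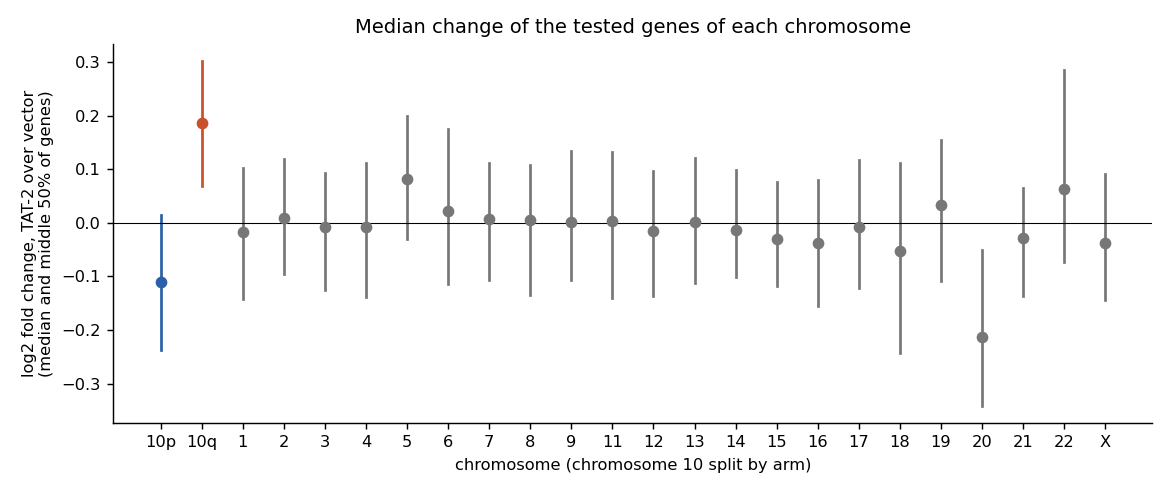
Median log2 fold change, TAT-2 over vector, of the tested genes of each chromosome (point) with the quartiles (line). Chromosome 10, members included, is split by arm, and the others are whole. The median of 10q, 0.19, is the highest shown, and that of 10p, -0.11, is lower than all but chromosome 20.

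RNA processing genes were mostly members of 10q and mostly higher. NOLC1, a nucleolar chaperone of small ribonucleoproteins, gave 1483, 1945 and 1930.1 on replicates 1, 2 and 3 labelled TAT-2, against 1217, 1414 and 1419 on those labelled vector, a log2 difference of 0.39 ± 0.13. CSTF2T, a form of a pre-mRNA 3' end cleavage factor, gave 139.9, 174 and 156 on arrays labelled TAT-2 and 112, 129.8 and 120.5 on arrays labelled vector (0.34 ± 0.13). Neither gene's labels overlapped, although a dimmer probe set of CSTF2T was at -0.04. EXOSC1, of the RNA exosome, gave 594, 731 and 795 on TAT-2 arrays and 426, 645 and 623 on vector arrays (0.33 ± 0.18), and only the lowest TAT-2 array, replicate 1, lay among the vector arrays. SUPV3L1, a mitochondrial RNA helicase, gave 163, 142 and 141 on TAT-2 arrays and 149, 132 and 120.2 on vector arrays (0.14 ± 0.13). The 2 members of the group on 10p were lower: the splicing factor RBM17 was at -0.24 ± 0.12 and UPF2, of nonsense-mediated decay, at -0.08 ± 0.12.

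DDX50 and DDX21 are related nucleolar RNA helicases whose genes lie side by side on 10q, and their estimates differed in size. DDX50 gave 651, 788 and 869 on arrays labelled TAT-2, against 599, 665 and 587 on those labelled vector (0.30 ± 0.12), with TAT-2 replicate 1 alone among the vector arrays. DDX21 gave 3580.5, 3152 and 3496 on arrays labelled TAT-2, against 3538, 3189 and 3018 on those labelled vector, a difference of 0.07 ± 0.09. Both have the letters CCGGAAGT, the core of an ETS factor motif, upstream of a start site, as 7.81% of the members' promoter windows and 4.14% of all windows do on either strand. DDX21 has another start site whose window lacks the motif, and its window with the motif is the one shown. Their promoters are shown because the neighbours share this motif and not the size of the difference. The sequences, from RefSeq on GRCh38.p14, cover 250 bases before to 50 after the start, plus strand, at chr10:68901065-68901364 and chr10:68955920-68956219, with the motif in capitals.
DDX50: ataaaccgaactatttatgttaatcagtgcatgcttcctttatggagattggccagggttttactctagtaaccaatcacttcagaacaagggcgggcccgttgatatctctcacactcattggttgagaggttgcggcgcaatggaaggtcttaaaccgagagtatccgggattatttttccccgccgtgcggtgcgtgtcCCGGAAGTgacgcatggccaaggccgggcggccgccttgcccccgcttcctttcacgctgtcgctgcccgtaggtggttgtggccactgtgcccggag
DDX21: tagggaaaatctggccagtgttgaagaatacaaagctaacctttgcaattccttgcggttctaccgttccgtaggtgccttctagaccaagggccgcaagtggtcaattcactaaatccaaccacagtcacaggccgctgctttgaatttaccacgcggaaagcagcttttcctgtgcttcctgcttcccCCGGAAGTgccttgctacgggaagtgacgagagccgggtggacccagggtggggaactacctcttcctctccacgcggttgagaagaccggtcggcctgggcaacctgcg

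HNRNPH3, an RNA-binding protein of the heterogeneous nuclear ribonucleoproteins, had the lowest value among the members on 10q, each read through its brightest probe set. It gave 842, 1219.6 and 1221 on replicates 1, 2 and 3 labelled TAT-2 and 999.7, 1475 and 1461 on those labelled vector (-0.26 ± 0.19). Replicate 1 was low under either label, so the labels overlapped, yet the difference was -0.24, -0.27 and -0.26 by number. Its dimmer probe sets were nearer to 0, at -0.08 ± 0.15, -0.12 ± 0.23 and -0.01 ± 0.17. TFAM, which packages mitochondrial DNA and starts its transcription, lies on the same arm before HNRNPH3 and was at 0.21 ± 0.13, with 704, 762 and 932 on TAT-2 arrays and 630.1, 673 and 753 on vector arrays. Both promoters hold the NRF1 motif, 10 letters searched on both strands, as 17.2% of the members' windows and 5.78% of all windows do. The 2 promoters are printed because the same motif stands before genes of opposite sign by their brightest probe sets. They are on the plus strand at chr10:58385160-58385459 and chr10:68331814-68332113 (of 3 start sites of HNRNPH3, the window with the motif), motif in capitals.
TFAM: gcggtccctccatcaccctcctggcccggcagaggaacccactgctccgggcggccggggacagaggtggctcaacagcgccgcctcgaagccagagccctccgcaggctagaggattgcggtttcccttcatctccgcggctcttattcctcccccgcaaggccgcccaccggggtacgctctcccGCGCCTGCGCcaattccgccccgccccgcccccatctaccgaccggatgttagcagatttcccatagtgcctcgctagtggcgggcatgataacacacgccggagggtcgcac
HNRNPH3: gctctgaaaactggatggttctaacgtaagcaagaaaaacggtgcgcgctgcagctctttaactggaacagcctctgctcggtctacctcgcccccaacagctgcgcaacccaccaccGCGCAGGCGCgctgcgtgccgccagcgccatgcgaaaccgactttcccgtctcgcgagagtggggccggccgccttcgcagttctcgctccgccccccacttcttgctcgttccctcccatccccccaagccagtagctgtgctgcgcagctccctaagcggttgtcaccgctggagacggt

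The other mitochondrial and peroxisomal members followed their arms, apart from GLUD1. PRDX3, a mitochondrial peroxiredoxin on 10q, gave 1636, 1667 and 1789 on arrays labelled TAT-2, against 1392, 1451 and 1455 on those labelled vector (0.24 ± 0.08), with no overlap. ACBD5, a peroxisomal membrane protein that tethers to the endoplasmic reticulum, on 10p, gave 263, 382 and 396 on TAT-2 arrays and 335, 439.6 and 502 on vector arrays (-0.29 ± 0.19), lower in all 3 numbers. PHYH, of peroxisomal fatty acid oxidation, was at -0.14 ± 0.16 and YME1L1, a protease of the mitochondrial inner membrane, at -0.09 ± 0.10. GLUD1, glutamate dehydrogenase, on 10q, was at -0.06 ± 0.16 with differences of -0.22, 0.01 and 0.05 by number. Another GLUD1 probe set, of nearly the same brightness, was at -0.14 ± 0.10 with no overlap.

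**Figure D5:**
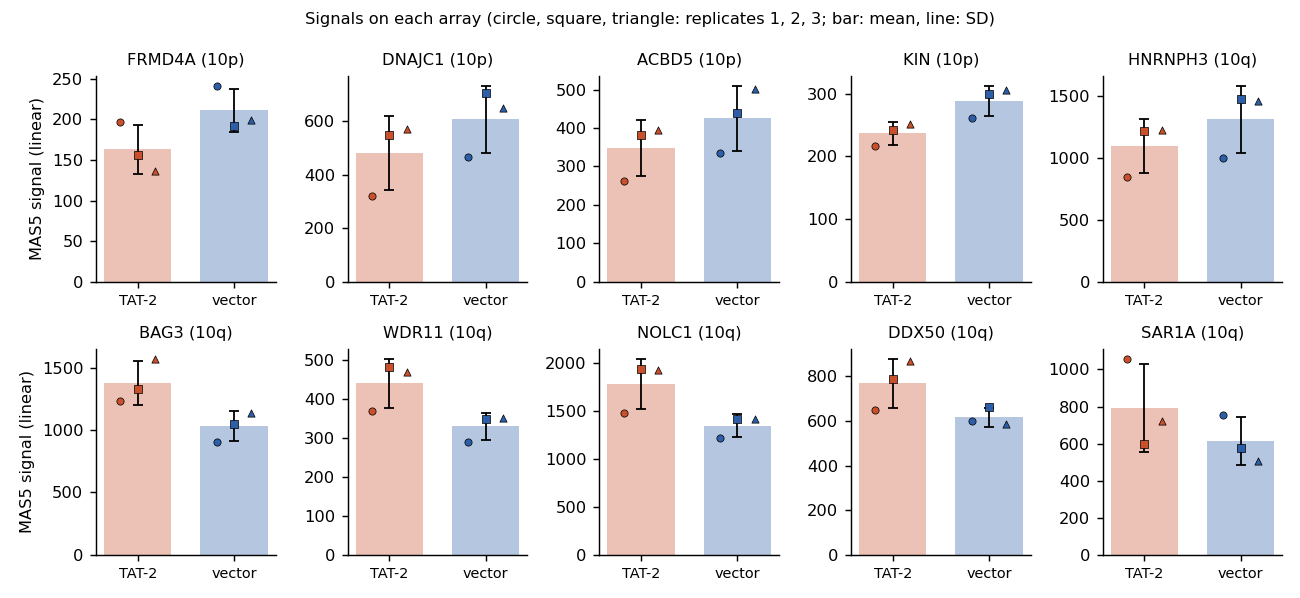
MAS5 signals of 10 members on the 6 arrays, with circles, squares and triangles for replicates 1, 2 and 3, bars for means and lines for SD (n = 3 each). Arrays labelled TAT-2 lie wholly above those labelled vector for BAG3, WDR11 and NOLC1 and wholly below for KIN, while replicate 1 sits apart in several panels.

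In membrane traffic the 5 members of 10q were all higher. WDR11, of vesicle capture at the trans-Golgi, gave 368, 482 and 469 on arrays labelled TAT-2, against 290.1, 349 and 349.6 on those labelled vector (0.39 ± 0.14), with no overlap. VTI1A, a SNARE of the Golgi and endosomes, gave 108, 123 and 108 on TAT-2 arrays and 90.2, 84.4 and 93.2 on vector arrays (0.29 ± 0.13), also with no overlap. SAR1A, the GTPase that starts COPII coats, gave 1058, 599 and 724 on arrays labelled TAT-2, against 756, 577 and 504 on those labelled vector (0.35 ± 0.22). Replicate 2 contributed least to it, with differences of 0.48, 0.05 and 0.51 by number. VPS26A, of the retromer, gave 1639, 2142 and 2282 on TAT-2 arrays and 1440.0, 1804 and 1901 on vector arrays (0.23 ± 0.15), higher in each number by a similar amount. GBF1, an exchange factor for Golgi ARF GTPases, gave 167, 92 and 90.6 on arrays labelled TAT-2, against 128, 86.5 and 71.3 on those labelled vector, a difference of 0.24 ± 0.26 without the block and an SE of 0.11 with it, higher in all 3 numbers.

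The traffic genes of 10p were lower or near 0. STAM, of the ESCRT-0 sorting complex, was at -0.23 ± 0.10 with no overlap, and the kinesin heavy chain KIF5B at -0.22 ± 0.12. The autophagy receptor OPTN was at -0.06 ± 0.12 and the Rab inhibitor GDI2 at -0.05 ± 0.08. Dimmer probe sets were at 0.03 ± 0.12 for OPTN and, with no overlap, at -0.26 ± 0.09 for GDI2. USP6NL, a GTPase-activating protein of Rab proteins and the only 10p member above 0, gave 106, 104 and 147 on arrays labelled TAT-2, against 114, 96.4 and 132 on those labelled vector, and its 0.05 ± 0.17 was within its error.

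Among members of protein synthesis, folding and metabolism, BAG3 had the highest difference of the list. It gave 1230.5, 1334 and 1573 on arrays labelled TAT-2, against 901, 1051 and 1140.1 on those labelled vector, with no overlap. EIF4EBP2, a repressor of cap-dependent translation, gave 296, 319 and 340.5 on TAT-2 arrays and 264, 243 and 279.7 on vector arrays (0.27 ± 0.11), although a dimmer probe set was at -0.02. PPA1, an inorganic pyrophosphatase, gave 4042, 4214 and 4865 on arrays labelled TAT-2, against 3627, 3835 and 3841 on those labelled vector (0.21 ± 0.09). In all 3 genes, which lie on 10q, every TAT-2 array was above every vector array. DNAJC1, a J-domain protein of the endoplasmic reticulum on 10p, gave 322, 549 and 572 on TAT-2 arrays and 465, 707 and 649.9 on vector arrays (-0.35 ± 0.23), with replicate 1 low under either label. Of the others on 10p, HSPA14, a chaperone at the ribosome, was at -0.18 ± 0.11, SEPHS1, of the selenophosphate synthetase family, at -0.18 ± 0.12, and the N-myristoyltransferase NMT2 at -0.02 ± 0.16. Dimmer probe sets of NMT2 were at 0.15, 0.07 and -0.07.

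NUDT5, an ADP-ribose pyrophosphatase, and CDC123, an assembly factor of the translation initiation factor eIF2, are head-to-head neighbours of 10p. CDC123 was at -0.16 ± 0.07, with every TAT-2 array below every vector array, and NUDT5 at -0.10 ± 0.13, with overlap. A dimmer probe set of NUDT5 was at -0.40 ± 0.13, with no overlap. The start sites of NUDT5 and CDC123 lie 297 bases apart on opposite strands. Among the 43 tested members with a promoter window, no other pair had divergent starts within 1000 bases. The promoters are printed to show the shared stretch: the 204 bases in capitals belong to both windows, each read 5' to 3' on its own strand. NUDT5 is on the minus strand at chr10:12195842-12196141 and CDC123 on the plus strand at chr10:12195938-12196237 (GRCh38.p14).
NUDT5: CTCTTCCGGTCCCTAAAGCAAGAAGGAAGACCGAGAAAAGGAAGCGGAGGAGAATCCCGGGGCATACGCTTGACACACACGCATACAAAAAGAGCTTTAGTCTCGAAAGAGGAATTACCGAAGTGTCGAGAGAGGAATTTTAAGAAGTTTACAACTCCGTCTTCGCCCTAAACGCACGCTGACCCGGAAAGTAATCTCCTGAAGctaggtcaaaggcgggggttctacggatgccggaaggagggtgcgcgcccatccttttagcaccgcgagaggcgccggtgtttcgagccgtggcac
CDC123: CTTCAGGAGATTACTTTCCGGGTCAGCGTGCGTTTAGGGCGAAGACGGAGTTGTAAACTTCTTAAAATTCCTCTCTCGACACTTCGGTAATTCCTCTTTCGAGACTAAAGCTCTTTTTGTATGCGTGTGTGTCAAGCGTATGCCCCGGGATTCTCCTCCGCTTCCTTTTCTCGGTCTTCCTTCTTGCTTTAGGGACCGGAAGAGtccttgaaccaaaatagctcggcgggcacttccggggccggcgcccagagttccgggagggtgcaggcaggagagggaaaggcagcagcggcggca

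Members of transcription and chromatin showed small differences on either arm. NCOA4, a receptor for autophagy of ferritin that was named as a nuclear receptor coactivator, on 10q, gave 2108, 2553 and 2617 on arrays labelled TAT-2, against 1967, 2105 and 2262 on those labelled vector (0.20 ± 0.10). TCF7L2, a transcription factor of the Wnt pathway, gave 404, 552 and 502 on TAT-2 arrays and 347, 494 and 485 on vector arrays, a difference of 0.14 ± 0.17 without the block and an SE of 0.07 with it, with 2 dim probe sets below 0. SUFU, an inhibitor of Hedgehog signalling, was the dimmest member tested, with 46.9, 5.2 and 19.3 on arrays labelled TAT-2, against 35.4, 16.2 and 21.8 on those labelled vector, and its -0.14 ± 0.37 was smaller than its error. TAF3 of 10p, a subunit of the general factor TFIID, gave 89.4, 68.4 and 59.2 on TAT-2 arrays and 121, 85 and 70.4 on vector arrays (-0.28 ± 0.21), lower in all 3 numbers. A dimmer probe set of TAF3 was at 0.08 ± 0.19. The histone methyltransferase SUV39H2 was at -0.10 ± 0.12, MLLT10, a partner of the methyltransferase DOT1L, at -0.08 ± 0.15, the adaptor WAC at -0.08 ± 0.16 and EPC1, of the NuA4 acetyltransferase, at -0.04 ± 0.17. These last 4 are all of 10p. Their dimmer tested probe sets ran from -0.58 to 0.03 for EPC1, from -0.24 to 0.03 for WAC and from -0.39 to 0.19 for MLLT10. That of SUV39H2 was at -0.32.

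Genes of chromosome segregation on 10q and of DNA repair on 10p also parted by their brightest probe sets. BUB3, of the spindle checkpoint, gave 2726, 2577 and 2824 on arrays labelled TAT-2, against 2291, 2381 and 2509 on those labelled vector (0.18 ± 0.08). SMC3, of the cohesin ring, gave 805, 763 and 862 on TAT-2 arrays and 700.1, 756 and 749 on vector arrays (0.14 ± 0.09). Neither overlapped between the labels. KIN, a DNA- and RNA-binding nuclear protein of 10p, gave 216, 243 and 252 on arrays labelled TAT-2, against 262, 300.2 and 305 on those labelled vector (-0.27 ± 0.12), again with no overlap and with differences of -0.26, -0.29 and -0.26 by number. DCLRE1C, the nuclease Artemis of DNA end joining, gave 414, 240.0 and 234 on TAT-2 arrays and 407, 279 and 305 on vector arrays, with replicate 1 high under either label and a difference of -0.18 ± 0.23 without the block (SE of 0.09 with it). Dimmer tested probe sets of DCLRE1C were nearer to 0, at -0.05, -0.0013 and 0.08.

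Of the signalling and cytoskeletal members, FRMD4A had the lowest difference of the list. It gave 197, 157 and 137 on arrays labelled TAT-2, against 242, 192 and 199.7 on those labelled vector, with a difference of -0.35 ± 0.16 and lower values in all 3 numbers. Of 4 dimmer probe sets, 3 were below 0, from -0.13 to -0.05, and 1 was at 0.22. PIP4K2A, a phosphoinositide kinase of 10p, gave 179, 186 and 276 on TAT-2 arrays and 215, 243 and 280.1 on vector arrays (-0.21 ± 0.18), with a probe set of nearly the same brightness at 0.05. ABI1, of the actin-regulating WAVE complex, was at -0.07 ± 0.09. On 10q, SHOC2, a scaffold of RAS and MAPK signalling, gave 481, 559.9 and 515 on arrays labelled TAT-2, against 463, 422 and 407 on those labelled vector (0.26 ± 0.11), with no overlap. ANXA11, an annexin, gave 1549.5, 1069 and 1028 on TAT-2 arrays and 1251, 1029 and 1103 on vector arrays.

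Further probe sets of the same genes gave the arm's sign less evenly. Of 48 further tested probe sets for 21 members of 10p, 36 were below 0 (median -0.10), and of 37 for 17 members of 10q, 28 were above 0 (median 0.18). In all, 70 of 85 had the sign of their gene's brightest probe set. They come from the same arrays and are not independent of it.

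Promoters of the members were compared with those of all genes for letters alone. Of the 51 tested members, 43 had promoter windows in the RefSeq table, 64 windows in all, and both strands were searched. The GC box letters GGGCGG stood in 71.4% of windows of 10p members, 58.6% of windows of 10q members and 45.0% of all windows. CCAAT stood in 28.6%, 31.0% and 34.6% of them in the same order, and the E-box CACGTG in 8.57%, 10.3% and 7.26%. The ETS letters stood in 5.71% of windows of 10p members and 10.3% of those of 10q members, and the NRF1 letters in 20.0% and 13.8%. A match is a description of letters, and motifs may overlap.

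Listed partners, encoded on other chromosomes, did not share a direction. The list holds genes of the members' complexes and also relatives of members, LEF1, TCF7L1 and SAR1B among them. Of 71 listed, 61 were tested, with a median of -0.03 beside -0.00 for all genes. Limma without the block called 0 of them, although 7 lay at an unadjusted p under 0.05, where 9.38% of all genes did. With the block it called 7, 4 higher and 3 lower, where 8.4% of all genes were called. LEF1, a transcription factor related to TCF7L2, fell with the block, with 22.3, 21.7 and 14.7 on arrays labelled TAT-2, against 81.7, 55.4 and 56 on those labelled vector (-1.17 ± 0.19, adjusted p = 0.00181 with the block and 0.0539 without it). TCF7L1, of the same family, rose with the block (0.50 ± 0.19, adjusted p = 0.0195 in limma). SEC23B, of the COPII coat that SAR1A starts, fell with the block (-0.47 ± 0.14, adjusted p = 0.00655 in limma) and lies on chromosome 20. SAR1B, the close relative of SAR1A, lies on chromosome 5 and rose (0.29 ± 0.10, limma adjusted p = 0.0189 with the block). EXOSC5, a partner of EXOSC1 in the exosome, rose with the block (0.35 ± 0.12, adjusted p = 0.0321 in limma), while EXOSC10, a nuclease of the same complex, fell (-0.32 ± 0.11, limma adjusted p = 0.0313 with the block). SNX2, a sorting nexin of the retromer, also on chromosome 5, was the remaining call and rose (0.23 ± 0.16, limma adjusted p = 0.0499 with the block). LEF1, TCF7L1, EXOSC5 and EXOSC10 lie on chromosomes 4, 2, 19 and 1. SAR1B, EXOSC10 and SNX2 were named after their values were seen. CBX2, of PRC1, had the next largest size after LEF1 but was called by neither fit (-0.63 ± 0.30, limma adjusted p = 0.574, and 0.0878 with the block). In cohesin, the 4 tested partners of SMC3 had a median of -0.16, and in the spindle checkpoint the 4 of BUB3 had 0.00, with none called in either complex by limma. At an unadjusted p under 0.05 there were 0 in either complex without the block, and with it 3 of the 4 in cohesin and 1 of the 4 in the spindle checkpoint. With the block 22.3% of all genes lay under that p.

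The largest differences on chromosome 10 belonged to other genes. AKR1C2 and AKR1C1 of 10p, which encode enzymes that reduce steroids, fell, with -1.83 ± 0.25 and -1.42 ± 0.17 (limma adjusted p = 0.0304 and 0.0279), and AKR1C3 beside them fell with the block only (-1.10 ± 0.26, adjusted p = 0.000102 in limma). Probe sets of these related genes can share targets. ADIRF, a factor of fat cell differentiation, fell with the block although it lies on 10q (-0.72 ± 0.22, adjusted p = 0.000949 in limma). SCD, the stearoyl-CoA desaturase, gave 149, 1273 and 699.6 on arrays labelled TAT-2, against 119, 313 and 207 on those labelled vector, and rose with the block (1.31 ± 0.67, adjusted p = 0.00558 in limma), although replicate 1 gave little of it. BICC1, an RNA-binding protein (1.19 ± 0.24), and IFIT1, which binds viral RNA (1.04 ± 0.32), also rose with the block, at limma adjusted p of 0.00182 and 0.000392. BICC1 was dim on vector arrays, at 21.9, 13.3 and 11.4. The transcription factor EBF3 was at 0.77 ± 0.19 (limma adjusted p = 0.0372 with the block). It gave 29.1, 38.7 and 31.0 on TAT-2 arrays and 11.7, 7.82 and 19.1 on vector arrays. The vector mean, 12.9, lay below the filter signal of 15.2. EBF3 thus passed the filter through the arrays labelled TAT-2, and its call is not read as a rise. The sizes of these named genes are several times the shift of either arm.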

How the data were processed

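The deposited values are intensities, linear MAS5 signals of 54675 probe sets, per the submitters' processing notes; no MAS5 version was found in the labels or files. Labelled cRNA came from 2 µg of RNA, per the labels' protocols. A trimmed mean of the signals was nearly equal on all arrays (99.99), so the authors' scaling was kept. Probe sets with 1 gene symbol in the platform annotation (41091) were used, 41037 of them matched to RefSeq genes.

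Signals were taken as log2(signal + 16), which understates changes of dim probe sets. Those at or above the median of the non-control means (27307 probe sets, a signal of 15.2) were fitted with limma 3.58.1 in R 4.3.3 (intensity trend, group as the only term). The limma fit without the block was checked on simulated arrays with known changes, all larger than those of the members. Fits with the block were not checked in this way. Each of 12151 genes was represented by its brightest probe set, and p-values were adjusted over these genes by Benjamini-Hochberg. Adjusted over all 27307 probe sets instead, 7 genes were called in place of 40. Arms were parted at the widest stretch without a gene start between ZNF33A and ZNF33B. The number of arrays, 3 per label, limits the precision.

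Deviations of same-numbered arrays from their label's mean correlated with r = 0.64, 0.39 and 0.25 for numbers 1, 2 and 3, so the number, taken from the titles, was also used as a block. Numbers 2 and 3 correlated across too (0.32 and 0.20).

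Members and lists were chosen with earlier results of these data known. Members named with values on each array were, in each role group, the 3 of largest size and all above 0. HNRNPH3 and SUFU were added after their values were seen, as were 3 of the partners. Of partners, up to 4 called by size or else 2 of largest size were named, and of other chromosome 10 genes the 4 highest and 4 lowest. Alternatives were pseudocounts of 1 and 64, no filter and percentile 70, quantile normalization, centred medians, no trend, the block, replicate 1 as a batch, replicates 2 and 3 alone, averaging over all probe sets that a gene has, leaving out those ending in _x_at or _s_at, and each array left out. Blocked fits combined with these, and arm medians, were added after seeing the data.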

Additional observations from a re-analysis of the deposited data

How the results depend on the processing

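The median of 10p members stayed below 0 and that of 10q members above 0 under every alternative run without the block, each within the spread between replicates of -0.15 and 0.23. Their difference, -0.38, was -0.33 with a pseudocount of 64 and -0.35 with quantile normalization, and -0.38 to -0.34 with an array left out. The median of the other chromosome 10 genes (0.15) was 0.18 with a pseudocount of 1, 0.10 with 64, 0.086 without a filter and 0.19 at percentile 70. That of the other 10q genes (0.19) was 0.22, 0.14, 0.12 and 0.22 under these 4 settings, and that of the other 10p genes (-0.11) was -0.050 without a filter and -0.18 at percentile 70. With an array left out the medians of the other genes were 0.13 to 0.17 over chromosome 10, -0.12 to -0.056 on 10p and 0.17 to 0.21 on 10q. The median over all members (-0.05) was -0.070 to 0.048 with an array left out. By single member, 13 of 26 on 10p and 14 of 25 on 10q kept their sign in 17 of 17 alternatives. A further 2 on 10p and 6 on 10q kept it in the 16 that gave them a value, since leaving out _x_at and _s_at probe sets gave them none.

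With the replicate number as a block limma called 1021 genes, 12 members and 7 partners, against 40, 0 and 0 without it. With replicate 1 as a batch factor the counts were 896, 12 and 6, and within replicates 2 and 3 alone 284, 2 and 1. All genes called numbered 8 without a filter and 21 without the intensity trend, and 0 to 50 with an array left out; the 0 arose without replicate 2 or 3 of either label, with 779 to 905 genes at an unadjusted p under 0.05. The partner count was 1 with quantile normalization or centred medians. Adjusted over all probe sets 7 genes were called, and 846 genes and 9 members with the block. Blocked fits called 612 genes and 6 members within replicates 2 and 3, 816 and 3 with centred medians, 1173 and 19 with quantile normalization, 38 and 0 without the trend, and 510 to 934 genes and 4 to 8 members with an array left out (624, 517 and 926 genes without TAT-2 replicates 1, 2 and 3, and 606, 510 and 934 without those of vector). The cause of these moves was not tested. Leaving out arrays leaves fewer samples. Dim members such as SUFU are limited by their signal.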
